A study of Vigna radiata with 42 samples.

Results

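Of 28740 gene IDs measured in mung bean leaves, 75 were about 2-fold or more higher after 1 h of salt in seedlings that met salt for the first time, and close to their starting level after 1 h in seedlings that had been pre-conditioned with salt. The members were chosen by 5 conditions on log2(value + 1). The change from 0 to 1 h was at least 1 in direct salt and at most 0.4 after pre-conditioning. The 0 h means of both treatments lay within 0.5 of each other, and the change at 24 h of direct salt was under 1. The lowest direct-salt library at 1 h stood above every library of direct salt at 0 h and of pre-conditioned leaves at 1 h. The T1 group had 24 h of 100 mM NaCl and 48 h of salt-free nutrient solution before its final 100 mM NaCl, and the T2 group had the final 100 mM NaCl alone. Both are the cultivar Weilv 9, grown hydroponically, and the first fully expanded true leaf was taken before the final salt (0 h), after 1, 3, 6 and 12 h of it, and after 24 and 48 h. Each of the 14 groups has 3 libraries, 42 in all, which the labels call biological replicates. No source used here says whether each is a single plant, so p-values measure the spread between these libraries. No unsalted plants of later times are among the samples used here. A change with time therefore holds salt, plant age and time of day together, and no source used here says whether T1 and T2 plants were of 1 age.

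Salt reaches a plant first as an osmotic stress, which alters water uptake, calcium and abscisic acid signalling and gene activity before sodium has built up in the leaf, and later as an ionic stress. Plants that have met a stress and recovered can answer the next one with a different set or size of transcript changes, which is called priming or transcriptional stress memory and has been studied most in Arabidopsis. The deposited table names genes by ID only, and 0 of its IDs matched the reference gene list, so no member has a product name here and members are ordered by level and course.

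The conditions that chose the members can be followed one by one. A T2 change of at least 1 at 1 h was met by 1364 genes. Of these, 418 had a T1 change of at most 0.4, and 238 of those had matching 0 h means. The limit on T2 at 24 h left 229, and the requirement that single libraries not overlap left 75. With the roles of T1 and T2 exchanged, the same 5 conditions left 4 genes, from 654 with a T1 change of at least 1. The rule is a corner of a continuous cloud of genes. Just inside its limit on T2 were Virad02G0186500 at 1.004 and Virad04G0091300 at 1.007, and just outside were Virad07G0072100 at 0.997 and Virad08G0188900 at 0.996. Just inside the limit on T1 were Virad04G0091300 and Virad08G0116100, at 0.393 and 0.392, and just outside were Virad10G0146100 and Virad08G0450600, both at 0.403.

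**Figure D1:**
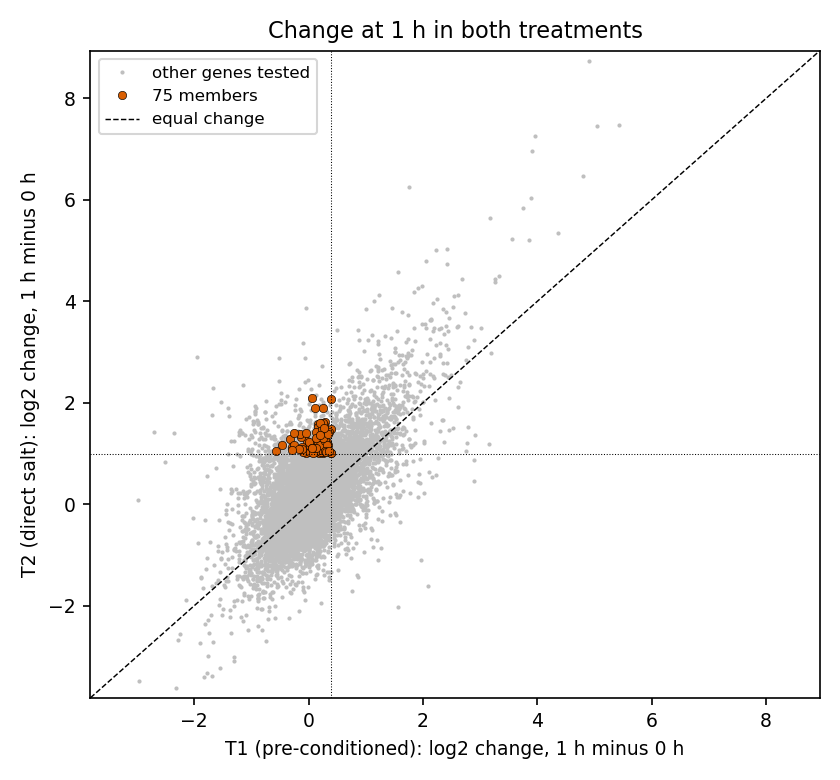
Log2 change from 0 to 1 h in T1 (x axis) against T2 (y axis) for the 75 members (orange) and the other genes that passed the filter on low values (grey); dotted lines mark the limits of 0.4 and 1, the dashed line equal change. The members lie above 1 in T2, with a median of 1.17, and at or below 0.4 in T1, with a median of 0.19.

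The libraries that the rule read were not alike. T1 0 h replicate 2 had a mean correlation of 0.923 with the other T1 0 h libraries and of 0.970 with the T2 0 h libraries, over the log2 values of 19753 genes that reached a value of 1 in 3 or more libraries. T2 1 h replicate 2 had a mean correlation of 0.963 with replicates 1 and 3, which had 0.980 with each other. It also had fewer genes at a value of at least 1, namely 17663, against 18913 in replicate 1 and 18636 in replicate 3. In the libraries of all other groups this number ran from 17235 to 18117. By this number replicate 2 lay within the range of the other groups, and replicates 1 and 3 lay above it. Without T2 1 h replicate 2, 492 genes met the rule in place of 75, and 68 of the members were among them. Replicate 2 was the lowest T2 1 h library in 423 of the 424 genes that met the rule only without it. Without T1 0 h replicate 2, 67 genes met the rule, 54 of the members among them. Each of the 15 libraries that the rule read was left out in turn, and 18 members met the rule every time. The part of these libraries in the members' 1 h values was not tested beyond these counts.

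The members' own level at 1 h of T2 ran from 1.30 to 531 on the deposited TPM scale, a value with gene length and sequencing depth divided out, with a median of 8.25. It was at least 100 in 4 members, between 10 and 100 in 31, between 5 and 10 in 7 and under 5 in 33. Of the 75 members, 2 (Virad04G0267700 and Virad06G0280000) did not pass the filter on low values and were not tested. In a leaf sample, fewer cells of a type and less RNA per cell cannot be told apart.

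The 1 h values are a description with no test, since the rule chose the members by them. The T2 change had quartiles of 1.08 and 1.38 and a highest value of 2.10, and the T1 change had quartiles of 0.02 and 0.27 with extremes of -0.56 and 0.39. The median over members, in log2(value + 1), was 1.75, 2.46 and 2.56 in the 3 T1 libraries at 1 h, against 3.38, 3.00 and 3.25 in the T2 libraries. T1 1 h replicate 1 was the lowest library of its group in 57 members, and T2 1 h replicate 2 of its group in 38. At 0 h the medians were 1.91, 2.10 and 2.06 in T1 and 2.05, 1.80 and 1.93 in T2. The median over all genes tested stayed between 3.64 and 3.78 in all 42 libraries.

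**Figure D2:**
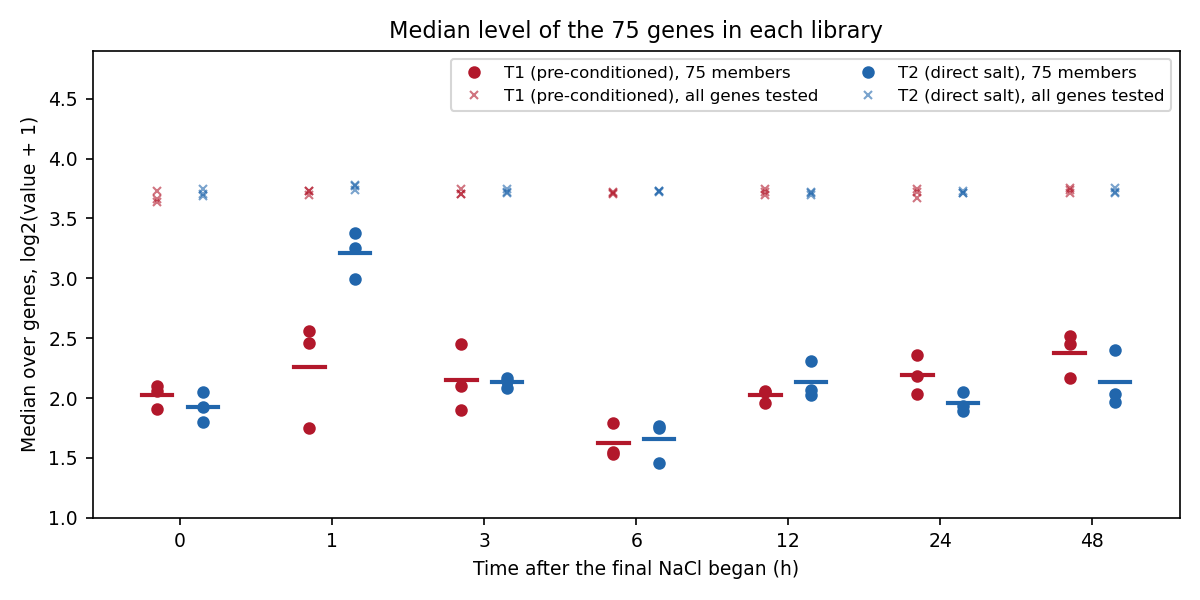
Median of log2(value + 1) over the 75 members in each of 42 libraries (dots, with the mean of each group as a bar) and over all genes tested (crosses), by time in hours after the final NaCl began, T1 in red and T2 in blue. The 3 T2 libraries at 1 h lie between 3.00 and 3.38, above every other library, and both treatments are lowest at 6 h.

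The 5 most abundant members at 1 h of T2 show the pattern at high signal. Virad10G0221300 had 208, 284 and 284 in T1 at 1 h, against 389, 572 and 632 in T2, the highest level of any member. It had 375, 206 and 393 in T1 at 0 h and 254, 241 and 246 in T2, so its T1 level at 0 h was uneven. Virad06G0058800 had 180, 320 and 315 in T1 at 1 h, against 497, 501 and 585 in T2. Its T1 level reached 543, 610 and 588 at 12 h, overlapping the T2 libraries at 1 h. Virad08G0072400 had 23.0, 46.8 and 48.1 in T1 at 1 h, against 110, 90.6 and 88.0 in T2. It is one of the 18 members that met the rule whichever library was left out, and it stayed between 30.5 and 60.0 in every library of both treatments from 3 h on.

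Virad03G0220700, also among those 18, had 46.0, 57.8 and 52.9 in T1 at 1 h, against 270, 198 and 185 in T2. At 0 h it had 36.8, 67.8 and 45.1 in T1 and 56.8, 43.9 and 73.5 in T2, so both treatments began from overlapping levels. Virad02G0155300 had the largest T2 change, 2.10 on the log2 scale. It had 21.8, 45.3 and 36.2 in T1 at 1 h, against 125, 120 and 115 in T2. Its T1 libraries at 0 h were at 17.4, 82.3 and 21.2, and the high one is replicate 2. The T1 change at 1 h was 0.07 with that library and 0.75 without it, above the limit of 0.4, while the T2 change of 2.10 does not involve it.

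The other members among the 10 largest T2 changes, at a T2 1 h mean of at least 5, had T2 changes of 1.37 to 2.08. Of the 10, only 1, Virad03G0220700, met the rule whichever library was left out. Without T1 0 h replicate 2, the T1 change was 0.49 in Virad01G0165200, 0.49 in Virad11G0026700 and 0.50 in Virad04G0224600, above the limit of 0.4. Virad02G0133700 and Virad03G0160900 also failed the rule without that library. Virad03G0160700 had 1.69, 4.33 and 4.96 in T1 at 1 h, against 9.80, 9.70 and 14.6 in T2. Its T1 change was 0.39, and 1.00 without T1 0 h replicate 2. Virad03G0160900 had 6.96, 14.6 and 15.8 in T1, against 24.2, 25.2 and 29.8 in T2. These IDs follow each other in the table's numbering, with no ID listed between them. The pairs Virad06G0094200 and Virad06G0094500, and Virad08G0140300 and Virad08G0140700, had 2 and 3 listed IDs between them, and none of those 5 met the rule. Virad02G0133700 had 10.4, 20.1 and 25.5 in T1 at 1 h, against 46.1, 35.5 and 32.2 in T2, and Virad01G0165200 had 7.50, 7.92 and 8.52 in T1, against 31.8, 19.8 and 25.7 in T2.

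Virad09G0159800 had 24.2, 34.5 and 30.5 in T1 at 1 h, against 71.2, 52.5 and 80.9 in T2. Its T2 libraries at 0 h were at 27.3, 7.53 and 45.6, a wide spread. Virad11G0026700 had 22.5, 10.6 and 18.1 in T1 at 1 h, against 35.0, 28.6 and 34.8 in T2. Virad10G0014600 had 1.47, 3.39 and 2.03 in T1, against 9.74, 4.54 and 6.81 in T2, and Virad04G0224600 had 2.36, 7.56 and 7.26 in T1, against 8.75, 7.70 and 9.74 in T2. In Virad04G0224600 the highest T1 library nearly reached the lowest T2 library.

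The 75 IDs were spread over all 11 number groups of the ID system, from 3 members in group 9 to 13 in group 8. These held 6.26% and 15.7% of all IDs. No member carried a Pt or Mt ID.

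The burst had mostly passed by 3 h. The members' median T2 change from 0 h, at 1.17 after 1 h, was 0.31 after 3 h. It stood at 0.08, 0.20 and 0.08 after 6, 12 and 24 h and at 0.37 after 48 h, against T1 medians of 0.19, 0.20, -0.01, 0.02, -0.01 and 0.31 in time order. The later T2 medians were thus near their start, with a small excess at 48 h in both treatments. Single members moved further, with T2 changes from -1.82 to 1.11 at 6 h and from -2.03 to 2.29 at 12 h. At 3 h, 42 of the 75 were back at a T2 change of at most 0.4, where 84.0% of all genes tested were, 29 lay between and 4 kept a change of at least 1, where 4.14% of all genes did. As the rule read the 0 h libraries, these changes are descriptions. Apart from the members, 491 genes had a change of at least 1 at 1 h in both treatments. Of these, 206 (41.96%) still had a T2 change of at least 1 at 3 h. They began higher, with a median T2 change of 1.87 at 1 h, against 1.17 in members. No limit at 24 h was put on them, and 62 had a T2 change of at least 1 there. These shares are thus not of like sets. T2 at 1 h was the highest of the 7 T2 group means in 65 members and the highest of all 14 group means in 55. The rule favours this, since it set T2 at 1 h above T2 at 0 h and T1 at 1 h and limited T2 at 24 h. No such count was made over all genes.

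The 4 members that stayed up at 3 h in T2, picked out after their values were seen, were Virad05G0170600, Virad04G0091300, Virad06G0012200 and Virad04G0192800. Their T2 changes at 3 h were 2.53, 1.229, 1.18 and 1.15, and their T1 changes at 3 h were 0.90, 0.64, 0.70 and 0.71. Virad05G0170600 had 1.09, 3.30 and 2.73 in T1 at 3 h, against 6.05, 6.85 and 6.12 in T2, so its T2 peak came at 3 h. Virad04G0192800, for which all T1 libraries lay below all T2 libraries by the rule at 1 h, averaged 52.5 in T1 at 3 h, against 76.5 in T2.

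**Figure D3:**
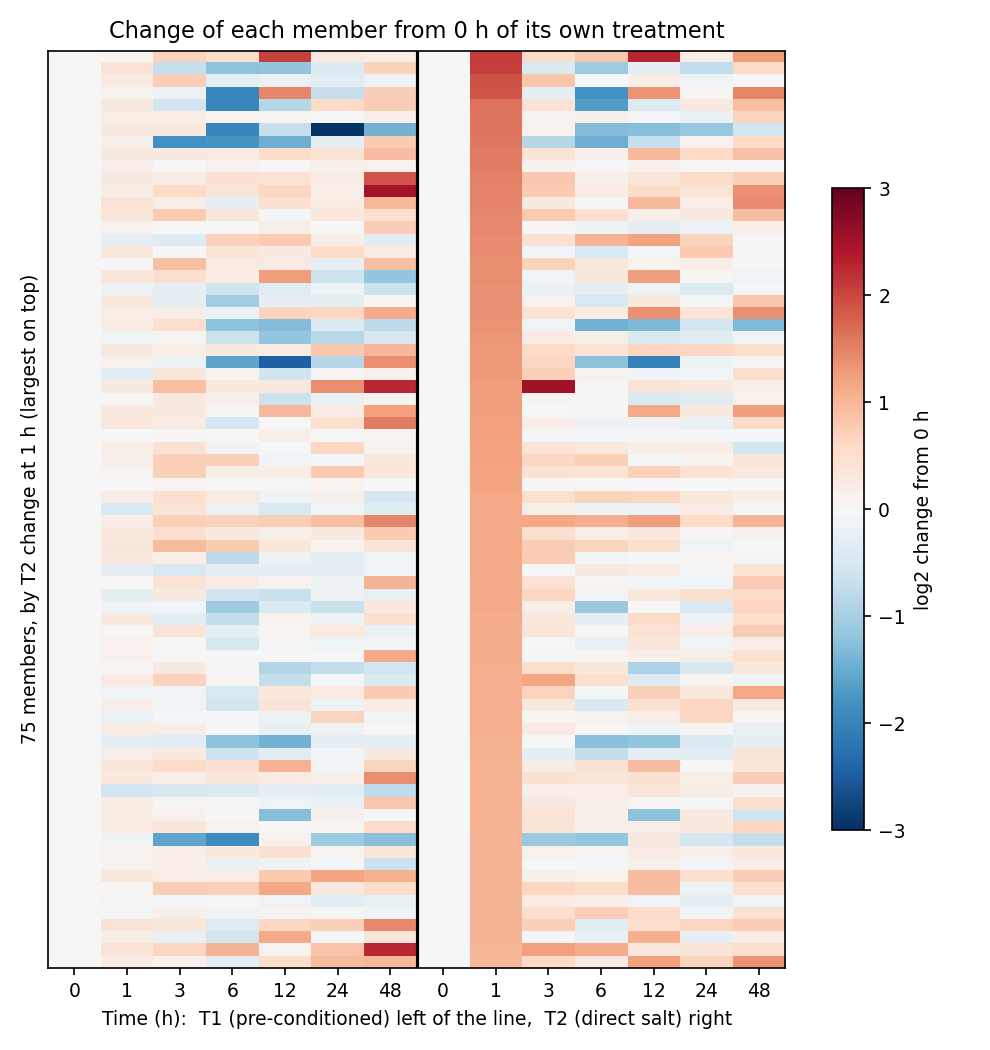
Log2 change of each of the 75 members from the 0 h mean of its own treatment (colour, blue lower and red higher), with members in rows ordered by T2 change at 1 h and times in columns, T1 left and T2 right of the line. The T2 column at 1 h is red in every row by the rule; in T1 no member is at 1 or above at 1 or 3 h and 15 are at 48 h, while 11 are at -1 or below at 6 h.

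Whether the difference between treatments outlasted 1 h was tested at 3, 6, 12 and 48 h, with libraries that the rule did not read. At 3, 6 and 12 h no member passed the threshold. Of the 73 tested, limma called 0 at each of these times, with 10, 5 and 9 at an unadjusted p under 0.05. Over all genes 0.446%, 0.0557% and 0.835% were called, so few calls were to be had at these times. The median difference over the 73, T1 minus T2, was -0.02, -0.03 and -0.12 in time order, against 0.01, 0.01 and 0.00 over all genes. At 1 h it had been -0.98. All T1 libraries lay below all T2 libraries in 10 members at 3 h, 8 at 6 h and 14 at 12 h, where 9.30%, 7.85% and 9.48% of all genes did, and above them in 3, 2 and 6, where 9.46%, 8.49% and 11.3% did.

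The smallest adjusted p at 3 h was that of Virad05G0170600, which differed by -1.18 at 3 h (SE 0.30, limma adjusted p = 0.0585). Virad04G0192800, with the smallest adjusted p at 6 and 12 h, differed by -0.55 at 3 h (SE 0.17, adjusted p = 0.113), by -0.50 at 6 h (adjusted p = 0.224) and by -0.61 at 12 h (adjusted p = 0.0921). With every library scaled to the same total, 1 member, Virad05G0170600, was called lower in T1 at 3 h, and after quantile normalization 1, Virad04G0192800, was called lower in T1 at 12 h.

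From 3 to 6 h the members that changed moved down, with 1 exception. For this and the later steps, the gene named in each direction is the called member with the largest change at a mean of at least 5. In T1 16 of the 73 fell and 1 rose, where 14.1% of all genes fell and 14.1% rose. In T2 14 fell and 0 rose, where 14.1% fell and 12.2% rose. The median step was -0.27 in T1 and -0.23 in T2, against -0.02 and -0.01 over all genes. Both lists shared 9 members, 56.2% of the T1 list and 64.3% of the T2 list, where over all genes that fell the shared ones were 64.8% of each list. Virad09G0159800 had the largest fall in T1, to 3.97, 18.7 and 1.69 at 6 h, against 47.1, 41.4 and 13.6 at 3 h (log2 change -2.28, SE 0.62, adjusted p = 0.00642). That call was lost without T1 6 h replicate 3 (adjusted p = 0.0647) and in a fit restricted to the pair of groups (0.0783). In T2 such a fit gave 9 falls. Virad05G0170600 had the largest fall in T2, to 0.345, 0.313 and 0.214 at 6 h, against 6.05, 6.85 and 6.12 at 3 h (log2 change -2.51, SE 0.30, adjusted p = 3.4e-07). The 1 member that rose in T1 was Virad10G0014600, to 5.76, 6.96 and 3.27 at 6 h, against 2.199, 1.41 and 2.24 at 3 h (log2 change 1.07, SE 0.28, adjusted p = 0.00482). With every library scaled to the same total, the T1 step gave 10 falls and 2 rises.

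From 6 to 12 h 20 members rose in T1 and 19 in T2. In T1 7 fell beside the 20 that rose, and of all genes 20.9% rose and 22.1% fell. In T2 5 fell beside the 19 that rose, and of all genes 18.4% rose and 19.1% fell. Of the members, 18 rose in both, which is 90.0% of the T1 list and 94.7% of the T2 list. Over all genes the shared risers were 70.2% of the T1 list and 79.8% of the T2 list. No member moved in opposite directions. Virad03G0220700 had the largest rise in both treatments. It had 123, 132 and 152 in T1 at 12 h, against 10.8, 13.7 and 11.1 at 6 h (log2 change 3.41, SE 0.29, adjusted p = 9.08e-11). In T2 it had 124, 183 and 140 at 12 h, against 14.9, 18.2 and 13.4 at 6 h (log2 change 3.18, SE 0.29, adjusted p = 5.08e-10). In T1 every 12 h library stood above every 1 h library. Virad02G0155300 was likewise at 103, 136 and 171 in T1 at 12 h, against 147, 120 and 145 in T2. Virad04G0064000 had the largest fall in both, to 11.1, 8.72 and 9.08 in T1 at 12 h, against 27.0, 34.2 and 17.6 at 6 h (log2 change -1.32, SE 0.20, adjusted p = 4.81e-06). In T2 the change was -1.38 (SE 0.20, adjusted p = 3.25e-06).

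**Figure D4:**
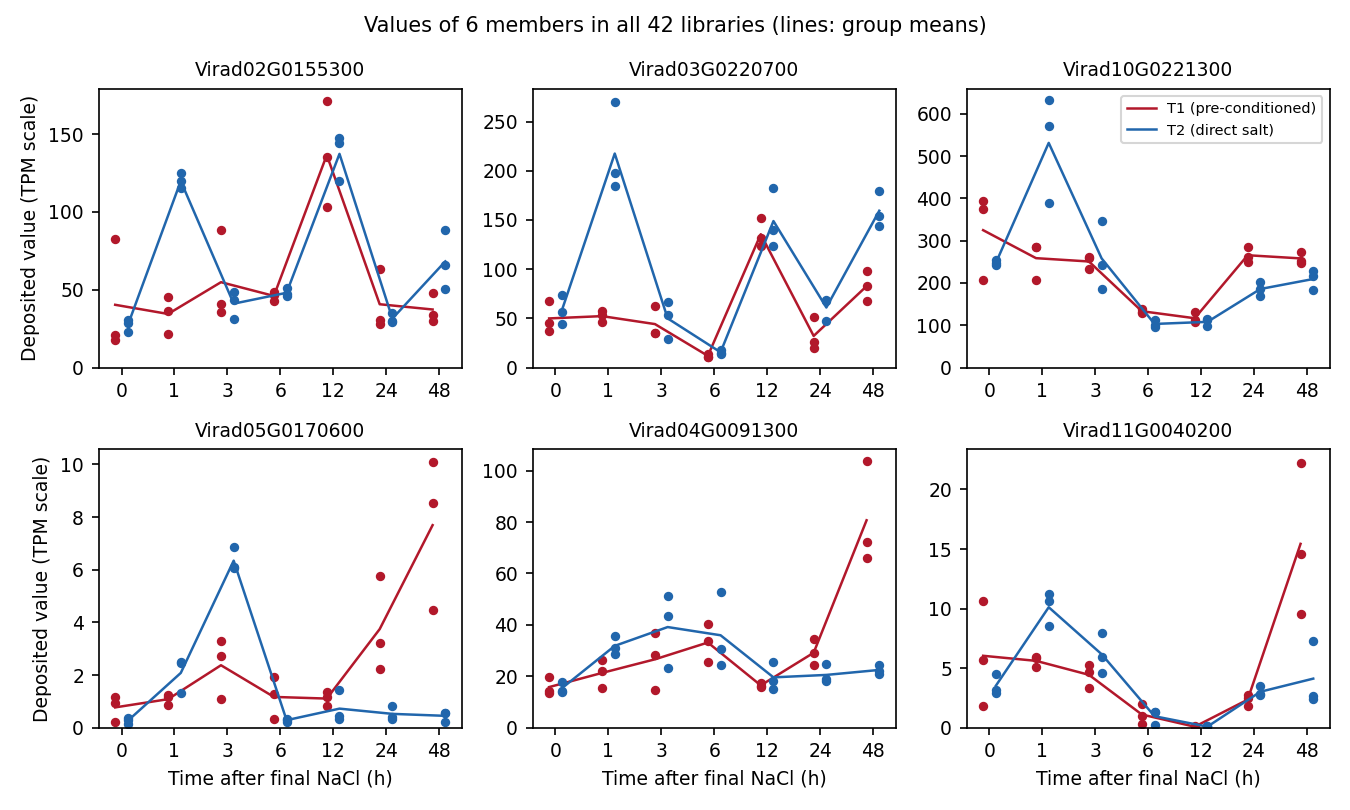
Deposited values (TPM scale, y axis) of 6 members in all 42 libraries by time in hours after the final NaCl began; points are libraries, lines join group means, T1 in red and T2 in blue. In the upper 3 genes every T2 library at 1 h lies above every T1 library at 1 h, by the rule, and the lower 3 show T1 above T2 at 48 h. The T1 libraries at 0 h are uneven in Virad02G0155300 and Virad10G0221300.

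Between 12 and 48 h 29 members rose in T1 and 15 in T2, and the test of a difference between these steps was not made. In T1 29 of the 73 rose and 8 fell, where 27% and 22.8% of all genes did, with a median of 0.38 over members and 0.02 over all genes. In T2 15 rose and 8 fell, where 18.2% and 16.7% did, with a median of 0.11 over members and 0.00 over all genes. Of the 15 that rose in T2, 13 (86.7%) were among the 29 of T1, and 44.8% of the 29 were among the 15. Over all genes these shares were 72.4% and 49%. The split depended on scaling. When all libraries were brought to 1 total, the median of all genes moved by -0.21 in T1 and -0.20 in T2, and 22 members rose and 11 fell in T1, while 10 rose and 12 fell in T2. Virad11G0040200 had the largest rise in T1, to 14.5, 22.2 and 9.51 at 48 h, against 0.082, 0.139 and 0.064 at 12 h (log2 change 3.83, SE 0.36, adjusted p = 3.28e-10). In T2 Virad11G0040200 rose by 2.10, to a mean of 4.13. Among members at a mean of at least 5, Virad02G0133700 had the largest rise in T2, to 19.6, 17.4 and 32.7 at 48 h, against 6.95, 10.97 and 7.72 at 12 h (log2 change 1.32, SE 0.31, adjusted p = 0.00121). Virad11G0026700 fell most in both, by 2.40 in T1 (SE 0.30, adjusted p = 1.09e-07) and by 1.37 in T2 (SE 0.30, adjusted p = 0.000566).

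At 48 h some members were called different between treatments, mostly with T1 above T2. Of the 73 members tested, 18 were higher in T1 and 5 lower, 23 in all (31.5%), where 23.6% of all genes were called, 14% higher and 9.62% lower. Without T1 48 h replicate 1 the counts were 10 higher and 4 lower, where 13.8% of all genes were called. The median difference over members was 0.07 on the log2 scale, against -0.01 over all genes. All T1 libraries lay above all T2 libraries in 19 of the 75 members (25.3%), close to the 23.3% of all genes. They lay below in 12 (16%), where 22.3% of all genes did. The 18 differed by 0.33 to 2.53 with a median of 0.72, and 7 of them by at least 1. In 9 of the 18 the T1 mean at 48 h was above the T2 mean at 1 h. The filter on low values counted the T2 1 h libraries too. Called members Virad08G0454100, Virad06G0266100, Virad08G0222000 and Virad09G0189700 passed it only with those libraries counted.

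Virad05G0170600 had the largest difference at 48 h, with 10.1, 4.46 and 8.54 in T1, against 0.577, 0.573 and 0.215 in T2 (log2 difference 2.53, SE 0.30, adjusted p = 1.48e-06). Its groups were already apart at 24 h, at 5.78, 3.23 and 2.23 in T1 and 0.419, 0.335 and 0.835 in T2, a time at which the rule read T2. At 3 h all T2 libraries had been above all T1 libraries, without passing the test. Virad04G0091300 had 104, 66.2 and 72.1 in T1 at 48 h, against 21.1, 22.1 and 24.4 in T2 (log2 difference 1.77, SE 0.29, adjusted p = 6.95e-05). Virad11G0040200 had 14.5, 22.2 and 9.51 in T1, against 2.41, 2.70 and 7.27 in T2 (log2 difference 1.73, SE 0.36, adjusted p = 0.000816). In all 3 every T1 library lay above every T2 library, which was a condition for naming them. Of all genes, 23.3% lay so.

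The 4 other called members that differed by at least 1 on the log2(value + 1) scale, and the abundant one after them, were chosen for mention after their values were seen. Some low members, such as Virad08G0454100 at means of 1.00 in T1 and 0.214 in T2, fell short of 1 on that scale. Virad11G0048100 averaged 3.97 ± 2.16 in T1 and 0.871 ± 0.790 in T2 (SD, n = 3 each), and Virad09G0076500 averaged 2.24 ± 2.08 in T1 and 0.230 ± 0.244 in T2. Virad01G0141200 averaged 6.85 ± 2.30 in T1 and 2.30 ± 0.424 in T2, and Virad08G0022000 averaged 5.75 ± 3.65 in T1 and 1.94 ± 0.891 in T2. The more abundant Virad10G0142900 averaged 65.9 ± 16.3 in T1 and 35.4 ± 3.25 in T2 (log2 difference 0.85, SE 0.13, adjusted p = 5.63e-05).

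The 5 members lower in T1 at 48 h differed by less than 2-fold on the log2 scale used. Virad03G0220700 had 67.8, 82.7 and 97.7 in T1, against 155, 144 and 180 in T2 (log2 difference -0.95, SE 0.29, adjusted p = 0.0156). That call was lost without T1 48 h replicate 1 (adjusted p = 0.0853) or T2 48 h replicate 3 (adjusted p = 0.0641). Virad11G0026700 had 5.76, 3.87 and 6.11 in T1, against 11.4, 8.04 and 13.6 in T2 (log2 difference -0.94, SE 0.30, adjusted p = 0.0233). It was lost without T1 48 h replicate 2 (adjusted p = 0.124), T2 48 h replicate 1 (0.0708) or T2 48 h replicate 3 (0.108). Virad07G0211600 had 3.92, 4.71 and 4.14 in T1, against 7.26, 9.45 and 7.63 in T2 (log2 difference -0.79, SE 0.21, adjusted p = 0.0062).

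**Figure D5:**
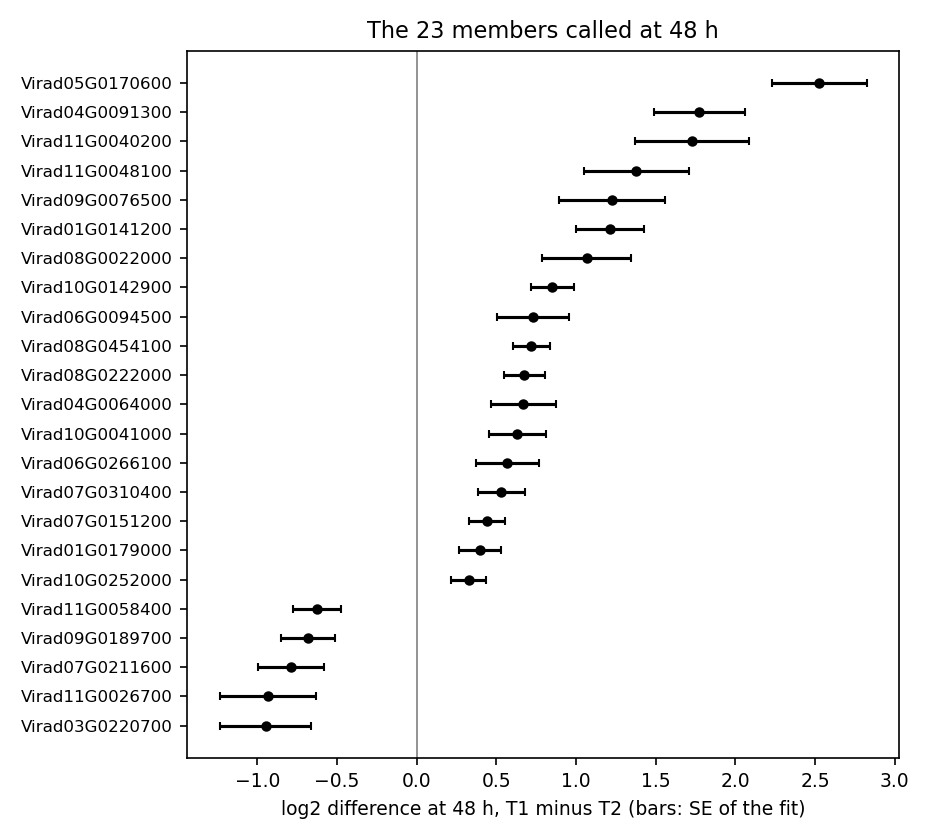
Log2 difference at 48 h, T1 minus T2, on the log2(value + 1) scale with the SE of the fit as bars, for the 23 members with an adjusted p under 0.05 (one row per gene). Points right of 0 are the 18 members higher in T1, from 0.33 to 2.53, and points left of 0 the 5 that were lower.

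A related test took the change from 3 to 48 h, whose means leave out the 0 h and 1 h libraries. It contains the 48 h difference itself, so its calls are not independent of those at 48 h. The change in T1 exceeded that in T2 in 14 of the 73 members and was smaller in 3, 17 in all (23.3%), where 9.43% and 6.12% of all genes were called, 15.5% together. Of these 17, 15 were also called at 48 h, from the same 48 h libraries. Virad08G0454100 and Virad08G0222000, which passed the filter only with the T2 1 h libraries counted, were among the 15. This overlap was not counted over all genes. Virad05G0170600 stood at 3.71 (SE 0.42, adjusted p = 1.65e-06), Virad04G0091300 at 2.33 (SE 0.40, adjusted p = 0.000276) and Virad11G0040200 at 2.12 (SE 0.50, adjusted p = 0.00432). The 3 negative ones were Virad11G0026700 at -1.63 (SE 0.43, adjusted p = 0.00883), Virad07G0211600 at -0.98 (SE 0.29, adjusted p = 0.0207) and Virad11G0058400 at -0.63 (SE 0.21, adjusted p = 0.0403). The call of Virad07G0211600 was lost without T1 3 h replicate 1 (adjusted p = 0.0745), T1 48 h replicate 1 (0.0567) or T2 48 h replicate 2 (0.0568). The call of Virad11G0058400 was lost under 10 alternatives, with adjusted p from 0.052 to 0.128. The count was 9 in a fit restricted to the 4 groups, 9 when T1 48 h replicate 1 was left out and 11 when T2 3 h replicate 2 was.

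Measured from 0 h as a description, T1 changes reached 1 in no member at 1 h, by the rule (3.31% of all genes), and in none at 3 h (4.82%). They did so in 1 member at 6 h (7% of all genes), in 6 at 12 h (8.22%), in 2 at 24 h (3.46%) and in 15 at 48 h (8.88%). In all, 21 members reached a T1 change of 1 at some time from 3 h on. For T2 the number was 15, with the limit that the rule put on T2 at 24 h, and 10 members did so in both. The highest T1 group mean fell at 48 h in 28 members, at 3 h in 20 and at 12 h in 11, and at 1 h in 7. The rule capped T1 at 1 h, and these peak times were not counted over all genes.

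Outside the libraries that chose them, the members' pairwise correlations were low. Over the 27 libraries that the rule did not read, pairs of the 73 members had a median Pearson r of 0.11, with quartiles of -0.13 and 0.36, against a median of 0.00 for pairs of all genes tested. After each group's mean was taken out, the median was 0.04 for members and 0.00 for all genes. The libraries share depth and scaling between genes, so these are descriptions.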

How the data were processed

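Leaf RNA-seq from 42 libraries was used. Per the submitters' processing notes, the tools were fastp 1.0.1, HISAT2 2.2.1, featureCounts and DESeq2 1.48.2. No source used here gives the genome build or annotation. What was deposited, a normalized expression signal that the authors made, is TPM-like, but its columns sum to between 783218 and 1228249, not to one constant, so a further scaling that no source used here describes lies in it. The plan had assumed TPM. Absolute depth is unknown, so no counting interval or floor is given. All 42 columns matched a sample, and 0 columns were left unmapped.

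Values were taken as log2(value + 1), so fold changes of low genes are understated. The 19753 genes that reached 1 in 3 or more libraries entered a linear model with the 14 groups as means and 1 shared spread (limma 3.58.1, R 4.3.3). P-values were adjusted by Benjamini-Hochberg over all genes tested and called under 0.05. Python 3.11.15, numpy 2.4.6, pandas 2.3.3 and matplotlib 3.10.9 did the rest. The fit was run on simulated data with normal spread and with changes put only into genes above a set mean level. That run does not cover uneven libraries or low values. An exact permutation of 3 libraries against 3 cannot go below p = 0.1, so none is given.

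The members and lists were chosen with earlier results of these data known. The rule read 15 libraries, T2 at 0, 1 and 24 h and T1 at 0 and 1 h. Contrasts with those groups carry no test. The tests compare means of groups among the other 27 libraries. Their spread was estimated over all 42 libraries, the 15 included, so the tests are not fully independent of the rule. The filter on low values also counted the 15, so some low members entered the tests only through the T2 1 h libraries. Named genes are the 10 largest T2 changes at 1 h at a T2 mean of at least 5, the 5 highest T2 levels at 1 h, up to 3 called members per direction in each difference between treatments and in the change from 3 to 48 h, the largest called change per direction in each step, and the genes nearest the rule's limits. For the differences between treatments, the groups of a named member also had to lie apart, with a mean of at least 5 in the higher group. Genes named outside these rules are said to be so chosen.

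Alternatives were a pseudocount of 0.1, no filter on low values, 3 other scalings, a replicate block, a fit restricted to the contrasted groups and each library left out. Same-numbered libraries were checked for shared deviations. All 3 correlations exceeded 0.1 only for T2 at 12 against 6 h, at 0.142, 0.124 and 0.115, and there the block left the count of calls at 24. Single correlations were larger elsewhere. For T1 against T2 at 6 h they were 0.006, 0.459 and 0.548, and no alternative called a member there. For T2 at 48 against 12 h they were -0.444, -0.462 and 0.135. The lowest of any was -0.517, for replicate 3 of T1 at 12 against 6 h.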

Additional observations from a re-analysis of the deposited data

Results flagged for a closer look

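From 3 to 48 h the change in T1 and the change in T2 differed in 17 of the 73 members tested (limma interaction, Benjamini-Hochberg adjusted p under 0.05), where 15.5% of all genes did. The change was larger in T1 for Virad05G0170600, by 3.71 on the log2 scale, for Virad04G0091300, by 2.33, and for Virad11G0040200, by 2.12. The difference of changes, T1 minus T2, was -1.63 for Virad11G0026700, -0.98 for Virad07G0211600 and -0.63 for Virad11G0058400. The last of these passed in the fewest alternatives.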

How the results depend on the processing

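No tested value of a named gene changed direction. The members' median T2 change from 12 to 48 h did, at -0.05 with every library at 1 total, against 0.11. The calls of that step went from 15 higher and 8 lower to 10 higher and 12 lower. Of 335 recomputed values of named genes with a test, 315 kept their direction and side of the threshold and 20 lost their call. The count of members differing at 3 h was 1 with every library scaled to the same total, and at 12 h it was 1 after quantile normalization. A fit restricted to the contrasted groups gave 9 members for T2 from 3 to 6 h and 9 for the interaction from 3 to 48 h. With a pseudocount of 0.1 the rule found 121 genes, 45 of the members among them. After quantile normalization it found 60, with 49 of the members. Scaling every library to the same total gave 99 genes with 72 members, and median-of-ratios scaling gave 77 with 69. The causes were not tested. Leaving out single libraries gave 67 to 492 genes for the rule and 0 to 0 members for T1 against T2 at 3, 6 and 12 h. It gave 14 to 24 at 48 h, 12 to 20 and 12 to 15 from 3 to 6 h in T1 and T2, 22 to 26 and 21 to 25 from 6 to 12 h, 29 to 37 and 18 to 21 from 12 to 48 h, and 9 to 20 for the interaction. Scaling to the same total moved the median of all genes by 0.18 and 0.15 from 3 to 6 h and by 0.21 and 0.16 from 6 to 12 h in T1 and T2, and by -0.11 for T1 minus T2 at 3 h. With the replicate number as a block, 23 members were called at 48 h and 16 in the interaction, and no count moved by over 1.5 times. Unknown depth leaves the precision of low values unstated.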
